A study of Mus musculus with 4 samples.

Results

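The prolactin-family genes Prl8a9, Prl8a6, Prl6a1, Prl2c2 and Prl2c3 were examined in cultured mouse keratinocytes, the epithelial cells of the epidermis. A probe counted as theirs when it was no control probe and the array's annotation gave it 1 of these 5 gene names. That gave 4 of the 39429 probes, 1 each for Prl8a9 and Prl8a6 and 2 for Prl6a1, so 3 of the 5 genes had a probe by name. Prl2c2 and Prl2c3 had none by name and were read only through a probe named for Prl2c5 (below). The 5 names were picked with their values on these arrays already known, so the levels and differences of Prl8a9, Prl8a6 and Prl6a1 are descriptions.

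Cells came from the whole skin of newborn C57BL/6 mice that were Pla2g2f-/- or Pla2g2f+/+, were released with 0.05% collagenase A and were cultured for 3 days. Each culture was then kept for 48 h with 1 mM CaCl2 or without it, and the RNA of 6 mice per genotype was pooled. Pla2g2f encodes a secreted phospholipase A2. The 4 groups were thus -/- cells with calcium, -/- cells without calcium, +/+ cells with calcium and +/+ cells without calcium, with 1 array each. With 1 array per group there is no spread between samples, and every difference below lacks a replicate check and a p-value. The 6 mice of a genotype were mixed, so the genotype and the batch of cells prepared cannot be told apart.

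The prolactin family is a group of hormones and cytokines related to growth hormone. In the mouse it was multiplied by gene duplication, mostly into a single cluster on chromosome 13, and most copies are known from trophoblast and decidua of the pregnant uterus, while prolactin itself comes from the anterior pituitary. Prolactin acts through the receptor Prlr, the kinase Jak2 and the transcription factors Stat5a and Stat5b, with Cish and the Socs proteins as feedback inhibitors, but many of the placental copies have no known receptor. The proliferins (Prl2c genes) were found in growing fibroblast cultures and bind the receptor Igf2r. Raised calcium is the classical signal that makes cultured keratinocytes leave the basal state and differentiate.

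The 4 arrays sat on 1 slide, and between 66.97% and 68.63% of probes were well above background on an array. No spot was saturated. Levels are given as scanner intensity or, on the log2 scale, as the signal over the array's 75th percentile (level 0 is that percentile). Errors marked ± are the scanner software's own error of a spot, on the log2 scale for levels and differences, and cover neither cultures nor mice. The 1 probe for Pla2g2f read 286 and 211 in -/- cells with and without calcium, against 333 and 259 in +/+ cells with and without calcium. Its genotype difference was −0.49 ± 0.22 with calcium and −0.43 ± 0.23 without calcium. The labels do not say which stretch of the gene was deleted, so the probe cannot check the genotype labels. The basal keratinocyte markers Krt5 and Krt14 were well above background on all 4 arrays.

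The probe sequences show which transcript stretch each signal comes from, written 5′ to 3′ as on the array with mm9 positions. The Prl8a9 probe lies at chr13:27650118-27650177 on the minus strand. The brighter Prl6a1 probe lies at chr13:27410944-27411003 on the plus strand. The Prl2c5 probe that also lists Prl2c2 and Prl2c3 lies at chr13:13283943-13284002 on the plus strand. The single Prl8a6 probe lies at chr13:27524829-27524888 on the minus strand and the other Prl6a1 probe at chr13:27404501-27404560 on the plus strand.
Prl8a9: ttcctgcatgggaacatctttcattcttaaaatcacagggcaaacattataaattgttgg
Prl6a1: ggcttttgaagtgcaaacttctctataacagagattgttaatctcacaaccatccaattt
Prl2c5: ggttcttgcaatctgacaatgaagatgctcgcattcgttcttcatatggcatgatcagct

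The promoters are shown because Prl8a9, Prl8a6 and Prl6a1 had similar patterns over the 4 arrays. Each line gives the 150 bases before the RefSeq transcript start in GRCm38.p6, 5′ to 3′ along the gene, with the motif TATATA in capitals. Of the 5 genes 4 had such a window, and Prl2c2 had none in the table used. The Prl8a9 window is chr13:27564607-27564756 (minus strand), that of Prl8a6 chr13:27438689-27438838 (minus strand), that of Prl6a1 chr13:27312465-27312614 (plus strand) and that of Prl2c3 chr13:12800080-12800229 (minus strand).
Prl8a9: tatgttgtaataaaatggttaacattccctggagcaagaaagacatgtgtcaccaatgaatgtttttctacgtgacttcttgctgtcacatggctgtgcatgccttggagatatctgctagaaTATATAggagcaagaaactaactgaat
Prl8a6: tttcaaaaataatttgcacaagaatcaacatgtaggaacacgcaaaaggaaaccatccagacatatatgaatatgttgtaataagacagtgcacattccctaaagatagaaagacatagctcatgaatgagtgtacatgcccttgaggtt
Prl6a1: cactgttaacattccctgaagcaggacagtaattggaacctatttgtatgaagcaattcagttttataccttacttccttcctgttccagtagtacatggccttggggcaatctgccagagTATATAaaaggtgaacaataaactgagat
Prl2c3: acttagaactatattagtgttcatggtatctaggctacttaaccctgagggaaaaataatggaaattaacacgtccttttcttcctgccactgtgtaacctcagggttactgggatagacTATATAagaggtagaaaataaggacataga

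The motif TATATA began 27 bases before the start of Prl8a9, 29 before that of Prl6a1 and 30 before that of Prl2c3. Prl6a1 had further matches 215 and 217 bases before its start, which overlap each other. In the Prl8a6 window the letters occurred at base 12 of the annotated transcript and nowhere before the start. Searched on both strands in the 250 bases before the start, TATATA was present in 5.25% of 32851 promoters. The letters TGANTCA (the AP-1 motif) were present in 6.75% of these promoters, and among the 4 genes only before Prl2c3, at 209 bases. The letters TTCNNNGAA (the STAT motif) were present in 7.02%, and among the 4 genes only before Prl6a1, at 139 bases. Past the start, TGANTCA occurred at base 4 of the Prl8a9 transcript and TTCNNNGAA at base 26 of the Prl2c3 transcript. A match describes the letters and is no evidence of a bound site. In local alignments of the 300-base windows around the start, Prl8a9 and Prl8a6 shared 133 of 162 aligned bases (82.1%). These stretches began at −249 for Prl8a9 and −178 for Prl8a6, so at unlike distances from the start. Prl8a9 and Prl6a1 shared 86 of 109 (78.9%), with 17 gap positions left out. Prl8a6 and Prl6a1 aligned over only 35 bases, 28 of them identical (80.0%). A local alignment keeps only the best-matching stretch, and Prl8a9 and Prl2c3 reached 80.8% over 26 bases. Prl2c3 and Prl2c5 shared 287 of 299 (96.0%).

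Prl8a9, Prl8a6 and Prl6a1 were lower in -/- cells than in +/+ cells in both culture conditions, and all 4 of their probes were well above background on all 4 arrays. In +/+ cells all 3 genes were lower with calcium than without it. In -/- cells they differed between the calcium conditions by less than 2-fold. The proliferin signal was also lower in -/- cells but did not share the calcium pattern.

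Prl8a9, known as prolactin-like protein C beta of the placenta, read 484 and 518 in -/- cells with and without calcium, against 1542.5 and 3371 in +/+ cells with and without calcium. On the log2 scale its levels were −2.77 ± 0.15 and −2.48 ± 0.15 in -/- cells, and −0.83 ± 0.14 and 0.35 ± 0.14 in +/+ cells, in the same order. Both -/- arrays lay below both +/+ arrays, and +/+ cells without calcium stood highest.

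Prl8a6 is prolactin-like protein C alpha, of the same gene cluster. Its probe read 62.9 and 46.6 in -/- cells with and without calcium, against 173 and 409 in +/+ cells with and without calcium. The levels were −5.71 ± 0.29 and −5.95 ± 0.30 in -/- cells, against −3.99 ± 0.17 and −2.69 ± 0.15 in +/+ cells. The order of the arrays by genotype was that of Prl8a9, and the 2 -/- values were within the scanner error of each other. They also lay close to the detection limit: the dimmest probe well above background on those arrays read 40.4 with calcium and 31.1 without calcium. The array's annotation lists 4 RefSeq transcripts for the Prl8a6 probe. Which genes they belong to was not checked, and a part of Prl8a9 or other related transcripts in its signal was not tested.

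Prl6a1, prolactin-like protein B, is known from decidua and spongiotrophoblast. Its brighter probe read 100 and 130.5 in -/- cells with and without calcium, against 193 and 837 in +/+ cells with and without calcium. The levels were −5.04 ± 0.19 and −4.47 ± 0.16 in -/- cells, against −3.83 ± 0.16 and −1.66 ± 0.14 in +/+ cells. As for Prl8a9 and Prl8a6, +/+ cells without calcium stood above the other 3 arrays.

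**Figure D1:**
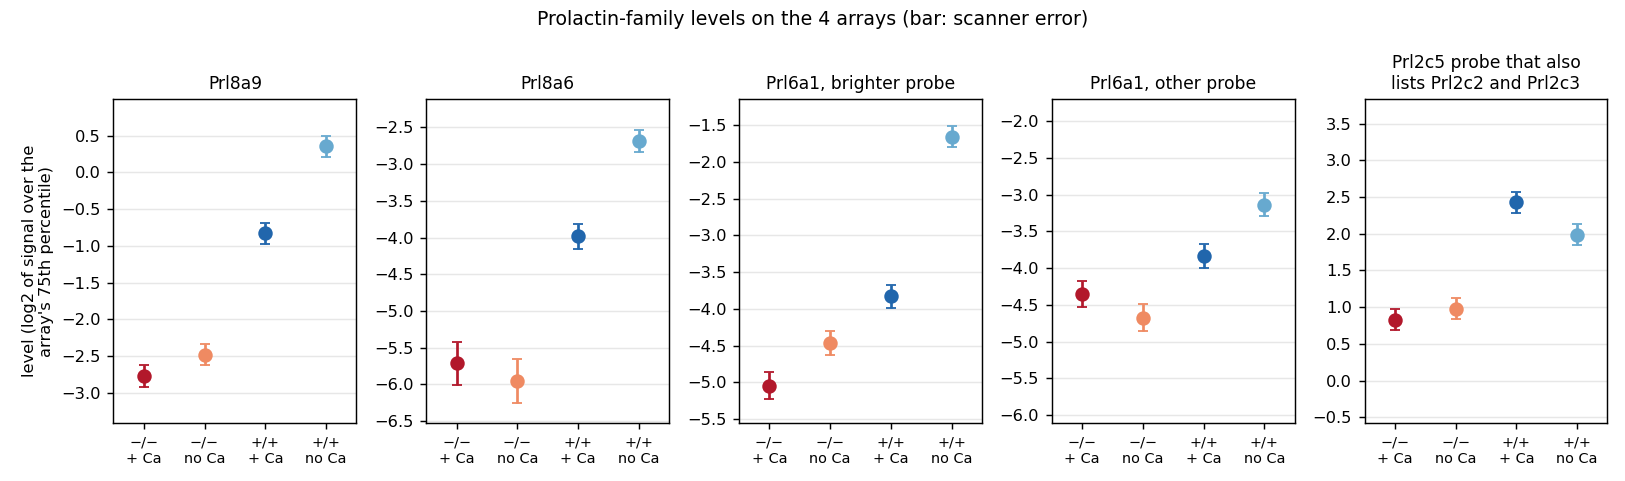
Level of each probe on the 4 arrays, as log2 of signal over the array's 75th percentile, with the scanner error as bars and 1 panel per probe (all y axes span the same number of log2 units). In every panel both -/- arrays lie below both +/+ arrays, and in the first 4 panels +/+ cells without calcium are highest.

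With calcium the -/- minus +/+ difference was −1.94 ± 0.21 for Prl8a9 (3.84-fold lower), −1.73 ± 0.33 for Prl8a6 (3.31-fold lower) and −1.22 ± 0.24 for Prl6a1 (2.32-fold lower). These were ranks 89, 137 and 384 from the lowest among 21564 genes compared, whose median difference was −0.16. Among all those genes 3.05% were at least 2-fold lower in -/- cells and 6.55% at least 2-fold higher. Without calcium the difference was −3.26 ± 0.33 for Prl8a6 (9.61-fold lower), −2.83 ± 0.21 for Prl8a9 (7.13-fold lower) and −2.81 ± 0.22 for Prl6a1 (7.02-fold lower), at ranks 2, 6 and 8 of 21346. There 4.32% of genes were at least 2-fold lower, 4.65% were at least 2-fold higher and the median was −0.18. All 3 genes were thus at least 2-fold lower in both conditions, as were 1.11% of the 20700 genes compared in both, against 4.12% at least 2-fold higher in both. Nothing is read from these shares, because the genes were picked for this contrast.

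The size of these differences depended on the background correction for the dim probes. With normexp correction of the mean spot signal the difference of Prl8a6 was −0.91 with calcium and −1.93 without calcium, and that of Prl6a1 was −0.84 with calcium and −2.34 without calcium. The values with calcium are then under 2-fold. Prl8a9 stayed at least 2-fold lower in both conditions with normexp correction, quantile scaling, median scaling and scaling to basal keratinocyte genes. The other alternatives (filter, mean of probes, deposited table) could hardly change its value. It has 1 probe, which was well above background on all 4 arrays.

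Bulk RNA was measured, so fewer cells of a type and less RNA per cell cannot be told apart. The summed level of 9 basal keratinocyte markers was 261 and 335 in -/- cells with and without calcium, against 382 and 421 in +/+ cells with and without calcium, in units of the 75th percentile. All 9 were well above background on all arrays and all 9 were lower in -/- cells in both conditions, with a median difference of −0.56 with calcium and −0.32 without calcium. After scaling each array to these 9 genes, a choice made after seeing the data, the genotype difference was −1.38 with calcium and −2.58 without calcium for Prl8a9. It was −1.16 with calcium for Prl8a6. For Prl6a1 it was −0.65 with calcium, which is under 2-fold, and −2.55 without calcium.

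Summed markers of mast cells, adipocytes, macrophages, fibroblasts and skeletal muscle were higher in -/- cells. The summed level of 8 mast cell markers was 11.3 and 11.3 in -/- cells with and without calcium, against 1.67 and 1.498 in +/+ cells. That of 7 adipocyte markers was 103 and 127 in -/- cells against 26.2 and 39.1 in +/+ cells, and that of 8 macrophage and Langerhans markers 25.0 and 18.3 in -/- cells against 6.22 and 6.96 in +/+ cells. That of 9 fibroblast markers was 211 and 196 in -/- cells against 116 and 130 in +/+ cells. Skeletal muscle markers (7 genes) summed to 2.24 and 1.297 in -/- cells against 1.09 and 0.56 in +/+ cells. Endothelial markers (6 genes) instead summed to 1.84 and 1.88 in -/- cells against 2.91 and 2.59 in +/+ cells. Of these lists 7 mast cell, 6 adipocyte, 7 macrophage and Langerhans, 9 fibroblast, 5 skeletal muscle and 5 endothelial markers were well above background on all 4 arrays. Ms4a2 (mast cell), Lep (adipocyte), Cd207 (Langerhans cell) and Ckm (skeletal muscle) were not above background on any array. Some markers of the higher lists were lower in -/- cells. Among them Itgam (macrophage) differed by −0.89 with calcium and −0.17 without calcium, and Myog (skeletal muscle) by −0.42 and −0.12. The part of these cell types in the prolactin-family differences was not tested.

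The calcium differences of these 3 genes were larger in +/+ cells, a contrast that was not tested. In -/- cells the difference with minus without calcium was −0.58 ± 0.25 for Prl6a1, −0.29 ± 0.21 for Prl8a9 and 0.24 ± 0.41 for Prl8a6, so none reached 2-fold. Only 0.602% of 21428 genes were at least 2-fold lower with calcium in -/- cells, while 2.99% were at least 2-fold higher. In +/+ cells the same difference was −2.17 ± 0.21 for Prl6a1 (4.50-fold lower), −1.30 ± 0.22 for Prl8a6 (2.46-fold lower) and −1.18 ± 0.20 for Prl8a9 (2.27-fold lower). They ranked 10, 94 and 127 from the lowest of 21129 genes, of which 1.01% were at least 2-fold lower, 2.47% were at least 2-fold higher and the median was −0.07.

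The difference between these responses, -/- minus +/+, was 1.596 ± 0.32 for Prl6a1 (3.02-fold), 1.54 ± 0.47 for Prl8a6 (2.90-fold) and 0.89 ± 0.29 for Prl8a9 (1.86-fold). Among the 19227 genes measured above background on every array, 1.91% reached 2-fold in this direction, 0.629% in the other, and the median was 0.02. For Prl8a6 the -/- arrays were near the detection limit named above, and how far this bounds its response was not tested. Under the scaling to the basal keratinocyte genes the responses in -/- cells were 0.07 for Prl6a1, 0.89 for Prl8a6 and 0.36 for Prl8a9, so that those of Prl6a1 and Prl8a9 changed sign. In +/+ cells they were −1.83, −0.96 and −0.84 for the same genes, the last 2 under 2-fold. With normexp correction the +/+ value of Prl8a6 was −0.98. In the main scaling, the summed level of the basal keratinocyte markers was lower with calcium in both genotypes. The summed level of 7 suprabasal and cornified keratinocyte markers, by contrast, was 55.6 with calcium and 9.36 without calcium in -/- cells, against 68.1 and 6.81 in +/+ cells.

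**Figure D2:**
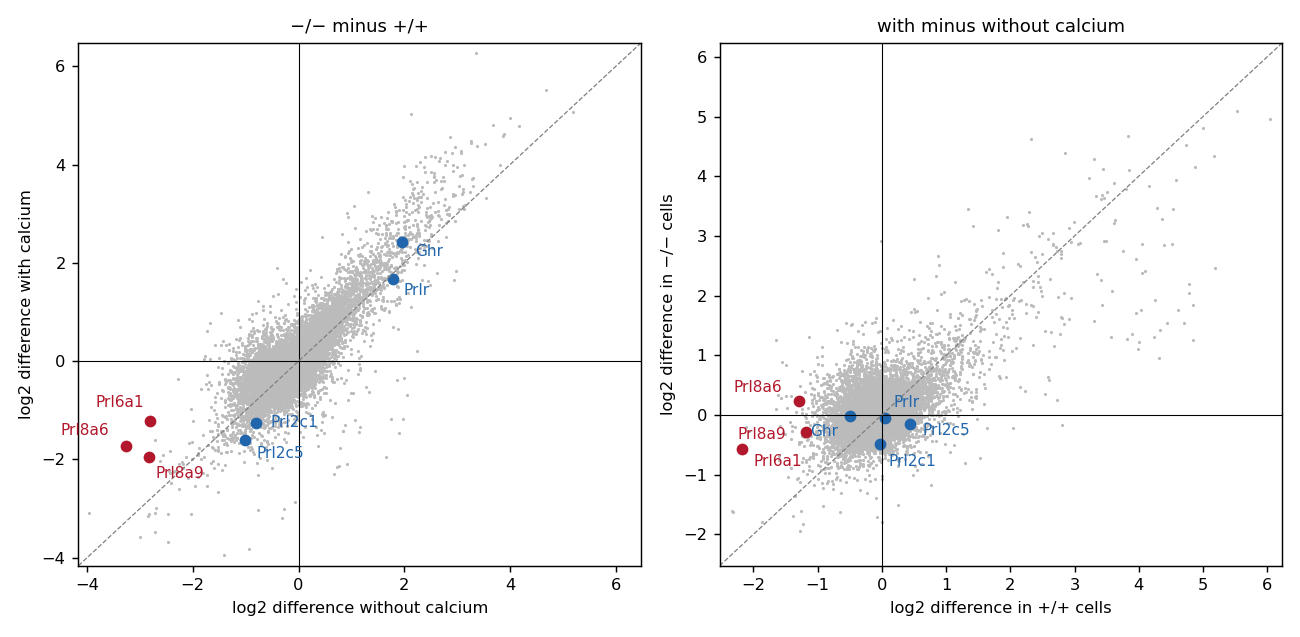
Each grey point is a gene well above background on all 4 arrays. The left panel sets the log2 difference -/- minus +/+ with calcium (y) against that without calcium (x), and the right panel the log2 difference with minus without calcium in -/- cells (y) against +/+ cells (x), with equal values on the dashed line. Prl8a9, Prl8a6 and Prl6a1 (red) lie at −1.94, −1.73 and −1.22 on the left y axis and at −0.29, 0.24 and −0.58 on the right y axis, and Prlr and Ghr (blue) lie at the upper right of the left panel.

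The probes for Prl6a1 differed in size but not in genotype direction. The second one begins 18 or 6 bases into the transcript, depending on the RefSeq start used, so it reads the 5′ end of the gene, and the brighter one lies further along the gene. The second probe read 162 and 113 in -/- cells with and without calcium, against 192.5 and 300 in +/+ cells with and without calcium. Its genotype difference was −0.52 ± 0.24 with calcium and −1.54 ± 0.24 without calcium, so only the value without calcium was at least 2-fold lower. Its calcium difference was 0.33 ± 0.26 in -/- cells and −0.69 ± 0.23 in +/+ cells. At the brighter probe the difference in -/- cells was −0.58 ± 0.25, so the probes had opposite signs there. Both probes had +/+ cells without calcium on top and a response difference above 2-fold (2.03-fold for the second). With the mean of both probes the genotype difference of Prl6a1 with calcium was −0.87.

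The proliferins Prl2c2 and Prl2c3 could not be separated. For the Prl2c5 probe shown above the files list 4 RefSeq transcripts, of which 3 matched Prl2c5, Prl2c2 and Prl2c3 in the gene table and 1 matched none, so its signal may come from any of them. It read 5853 and 5688 in -/- cells with and without calcium, against 14722 and 10436 in +/+ cells with and without calcium. Both -/- arrays lay below both +/+ arrays, and the -/- values lay close together.

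The genotype difference of this shared probe was −1.60 ± 0.20 with calcium (3.03-fold lower) and −1.01 ± 0.20 without calcium (2.01-fold lower). A second probe, listed for Prl2c5 and Prl2c1, read 4111 and 3889 in -/- cells against 9913 and 6995 in +/+ cells, and differed by −1.54 with calcium and −0.98 without calcium. The Prl2c1 probe, with 1 listed transcript, read 3386 and 4148 in -/- cells against 6737 and 6650 in +/+ cells. Its difference was −1.26 ± 0.20 with calcium (2.40-fold lower) and −0.81 ± 0.20 without calcium. The second probe lists Prl2c5 and Prl2c1, so it is not independent of the shared probe or of the Prl2c1 probe. Those other probes had no matched gene in common, and whether they read each other's transcripts was not tested. Scaled to the basal keratinocyte genes, the shared probe differed by −1.04 with calcium and −0.75 without calcium, and the Prl2c1 probe by −0.70 and −0.55. Under quantile scaling the shared probe differed by −1.50 with calcium and −0.95 without calcium.

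In contrast to Prl8a9, Prl8a6 and Prl6a1, the shared proliferin probe was not lower with calcium in +/+ cells. Its calcium difference was −0.15 ± 0.20 in -/- cells and 0.44 ± 0.20 in +/+ cells, so the response difference was −0.59. Prl2c1 differed by −0.48 in -/- cells and −0.04 in +/+ cells. None of these reached 2-fold.

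Of 28 prolactin-family genes listed, growth hormone (Gh) included, 24 had a probe. Of these 8 were well above background on all 4 arrays, 1 on 3, 2 on 2, 3 on 1 and 10 on none. Over all genes, 19227 of 30340 were well above background on all 4 arrays. Besides Prl8a9, Prl8a6, Prl6a1, Prl2c1 and Prl2c5, the family genes measured on all 4 were Prl2b1 and the placental lactogen genes Prl3b1 and Prl3d1. A second Prl3d1 probe was not well above background on any array (7.4 to 18.8 units), so the Prl3d1 signal rests on 1 probe. Prolactin itself (Prl) and Prl3a1, Prl3d2, Prl4a1, Prl5a1, Prl7a2, Prl7c1, Prl7d1, Prl8a2 and Prl8a8 were not well above background on any array.

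Among the family without the 5 genes picked, 10 could be compared between genotypes with calcium, each at its brightest probe. Prl2c5 is among them, although its probe also lists Prl2c2 and Prl2c3, so the set is not free of the genes picked. Of these 4 were at least 2-fold lower in -/- cells and none 2-fold higher, where 3.05% of all genes were 2-fold lower and 6.55% higher. The median was −0.46, against −0.16 over all genes. They were Prl2c5, Prl2c1, Prl2a1 at −1.34 ± 0.36, and Prl7b1, which was not well above background in -/- cells and was at least 2.42-fold lower. Without calcium 4 of 9 reached 2-fold lower and none 2-fold higher, where 4.32% of all genes were lower and 4.65% higher. The median was −0.81, against −0.18 over all genes. Those were Prl2c5, Prl2b1 at −1.04 ± 0.38, and Prl2a1 and Prl8a1, which were not well above background in -/- cells and were at least 2.68-fold and at least 2.62-fold lower. Prl3b1, placental lactogen II, differed by −0.23 ± 0.21 with calcium and −0.48 ± 0.21 without calcium.

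A gene seen only on +/+ arrays could enter the comparison only as lower in -/- cells, so these counts are descriptions. Prl2a1, Prl2b1, Prl7b1 and Prl8a1 were dim, with at most 128 intensity units on any array. With normexp correction their differences without calcium were −0.50, −0.53, −0.44 and −0.69 in that order, all under 2-fold. Prl2b1 had −0.13 with calcium, which became 0.44 under the scaling to basal keratinocyte genes. Prl3c1 and Prl7a1 were well above background only in -/- cells with calcium, at 67.7 and 70.8 units. A second Prl3c1 probe read 108.5 units there, and gave at least 2.43-fold higher in -/- cells with calcium than in +/+ cells with calcium, and at least 3.05-fold higher with than without calcium in -/- cells.

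**Figure D3:**
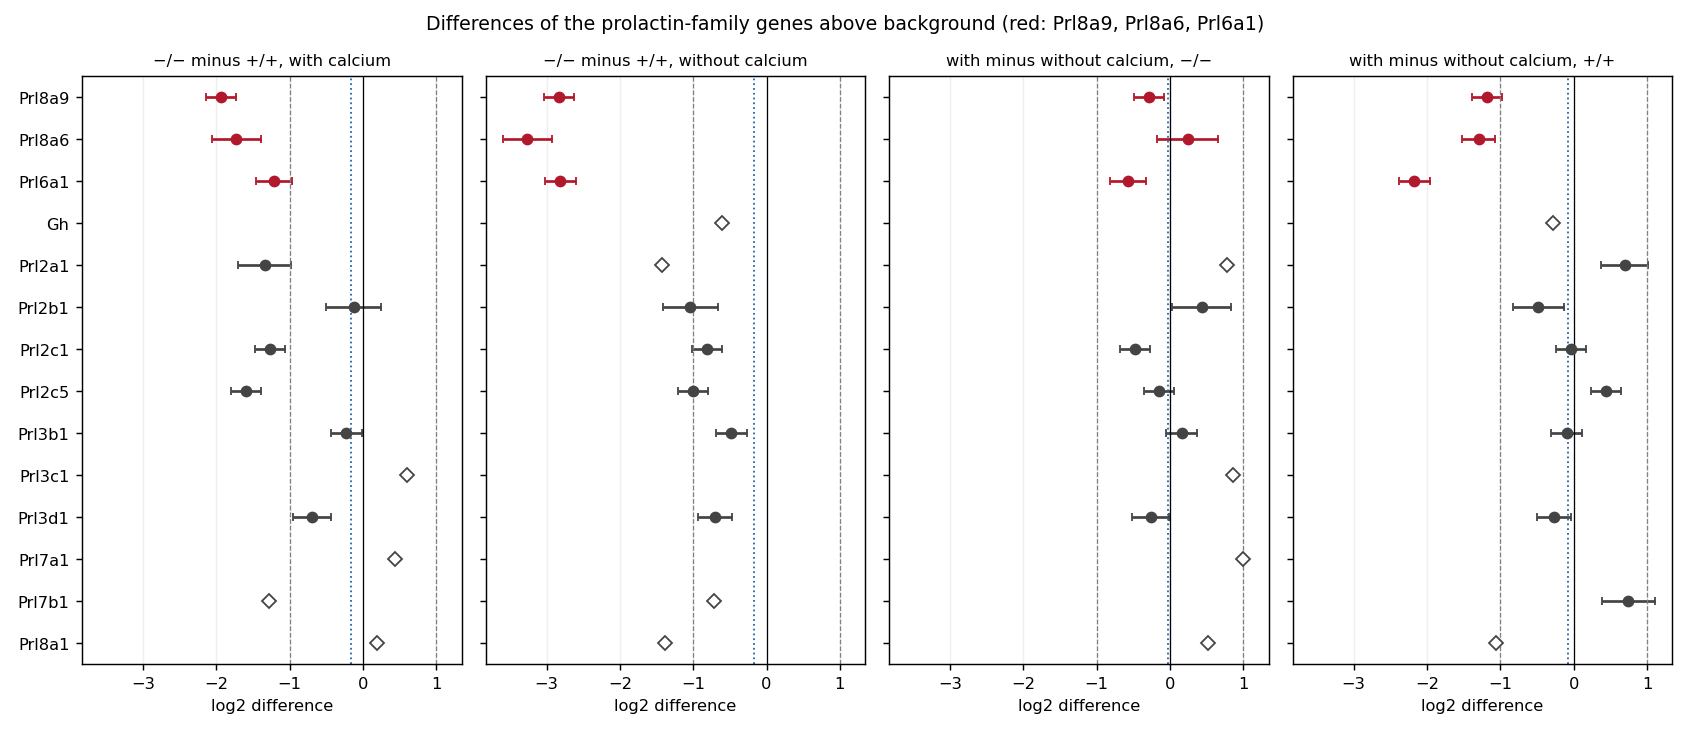
Log2 differences of the 14 prolactin-family genes well above background on at least 1 array, for both genotype contrasts (left pair of panels) and both calcium contrasts (right pair). Filled points have the scanner error as bars, open diamonds are lower bounds of a difference where 1 array was below background, dashed lines mark 2-fold, the dotted line is the median of all genes, and Prl8a9, Prl8a6 and Prl6a1 (red) are lowest in the panel without calcium.

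The family cluster spanned chr13:27156972-28243105 in mm9, or 1.09 Mb, by its probes. It held 22 family genes, of which 7 were well above background on all 4 arrays (19227 of 30340 over all genes) and 10 on none. Of 10 other genes or targets in it or within 1 Mb, 5 could be compared in each condition. Their genotype differences ran from −0.79 to 0.12 with calcium and from −1.01 to −0.07 without calcium. Only the target E130104P22Rik, named after its value was seen, reached 2-fold lower, without calcium. Around the proliferin probe, outside that cluster, 28 other genes lay within 1 Mb. Of these 1 of 25 compared was at least 2-fold lower and 2 were higher with calcium, and 0 of 23 were lower and 1 was higher without calcium. Over all genes 3.05% were lower and 6.55% higher with calcium, and 4.32% lower and 4.65% higher without calcium, so these neighbours lay near the background.

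Several genes of the receptor side were higher in -/- cells. Of 17 genes of the prolactin and growth hormone receptors, their signalling and feedback, all 17 could be compared. In -/- cells 4 were at least 2-fold higher with calcium (Prlr, Ghr, Socs2 and Socs1) and 3 without calcium (Prlr, Ghr and Socs2), and none was 2-fold lower. Over all genes 6.55% and 4.65% were at least 2-fold higher with and without calcium. The median over the list was 0.20 with calcium and 0.07 without calcium.

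Prlr, the prolactin receptor, read 1296 and 1180 in -/- cells with and without calcium, against 336.5 and 314 in +/+ cells with and without calcium at its brighter probe (mm9 chr15:10259066-10259125). The difference was 1.68 ± 0.21 with calcium (3.20-fold higher) and 1.78 ± 0.21 without calcium (3.43-fold higher). The other Prlr probe, at chr15:10255629-10255688, read 338 and 313 in -/- cells against 238 and 242 in +/+ cells. It gave 0.23 ± 0.21 with calcium and 0.24 ± 0.21 without calcium, so the size of the Prlr difference rests on 1 probe.

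Ghr, the growth hormone receptor, read 18053 and 16030 in -/- cells with and without calcium, against 2773 and 3767 in +/+ cells with and without calcium. It was 5.40-fold higher with calcium and 3.89-fold higher without calcium. Socs2, a feedback inhibitor of growth hormone signalling, read 2291 and 1719 in -/- cells against 727 and 589 in +/+ cells, or 2.62-fold and 2.67-fold higher with and without calcium. The feedback inhibitor Socs1 was 2.06-fold higher with calcium and 1.53-fold higher without calcium.

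The core of the pathway differed by less than 2-fold. Jak2 differed by 0.25 with calcium and 0.09 without calcium, Stat5a by 0.75 and 0.50, Stat5b by 0.20 and 0.35, and Cish by 0.39 and 0.88. Igf2r, the receptor to which proliferin binds, differed by −0.02 with calcium and −0.08 without calcium. No gene of the list differed 2-fold between the calcium conditions in either genotype. In +/+ cells 2.47% of all genes were at least 2-fold higher with calcium and 1.01% at least 2-fold lower. In -/- cells these shares were 2.99% and 0.602%. With shares this small, the lack of such genes in a short list lay near the background. Adipocytes, fibroblasts and macrophages also express several of the listed genes, and the part of their higher markers in the receptor values was not tested.

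**Figure D4:**
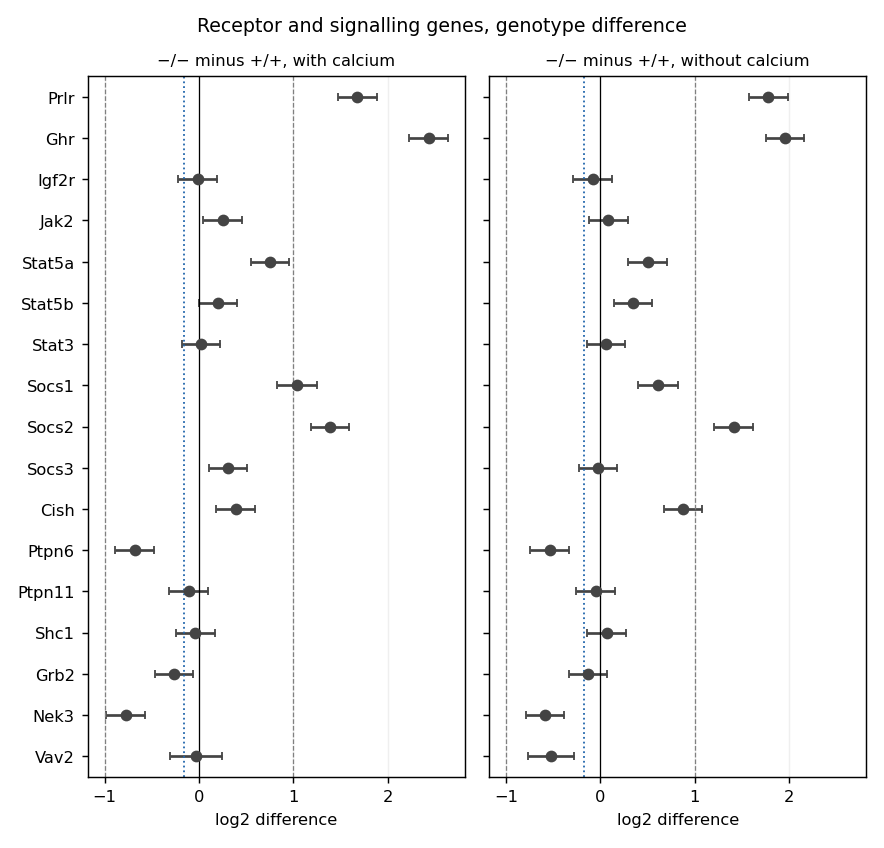
Log2 difference -/- minus +/+ of 17 receptor and signalling genes, with calcium (left) and without calcium (right). Points carry the scanner error, dashed lines mark 2-fold and the dotted line is the median of all genes. Ghr (2.43 and 1.96) and Prlr (1.68 and 1.78) lie furthest to the right.

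The likeness of patterns was measured over the 4 arrays as the root mean square difference of log2 levels after each gene was centred on its own mean, among 14390 genes. The nearest gene to Prl8a9 was Prl8a6 at 0.20 log2 units, followed by Stmn1, a microtubule-destabilising protein, at 0.27 and E2f7, a transcription factor of the E2F family, at 0.30. The nearest to Prl8a6 were Prl8a9 at 0.20, S100a8, a calcium-binding protein of inflamed skin, at 0.34, and Stmn1 at 0.39. The nearest to Prl6a1 were Prl8a9 at 0.41, Prl8a6 at 0.49 and E2f7 at 0.51. From Prl8a9, Prl6a1 stood at rank 8 and the shared proliferin probe at rank 162. Whether the Prl8a6 probe also reads Prl8a9 transcripts was not tested.

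Stmn1 levels were 1.07 and 1.41 in -/- cells with and without calcium, against 3.12 and 3.62 in +/+ cells with and without calcium on the log2 scale. Its genotype difference was −2.05 with calcium and −2.21 without calcium, or −1.36 and −1.52 as the mean of its probes. Its calcium difference was −0.35 in -/- cells and −0.51 in +/+ cells, under 2-fold in both. Stmn1 thus shared the genotype order of Prl8a9 with a calcium difference in +/+ cells under 2-fold. Likeness over 4 values is a description only.

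Markers of the tissues that normally make these hormones were sparse. Of 22 trophoblast and placenta markers 6 were well above background on all 4 arrays (19227 of 30340 over all genes) and 12 on none. Those on none included the spongiotrophoblast genes Tpbpa and Tpbpb, the trophoblast factors Elf5 and Cdx2, and Plac1. The summed trophoblast level was 7.74 and 10.3 in -/- cells with and without calcium, against 11.0 and 8.89 in +/+ cells with and without calcium. Most of that sum was Gcm1, which stood at 2.87 and 3.32 in -/- cells against 3.40 and 3.06 in +/+ cells (log2 levels). Ascl2, the next by mean level, stood at −2.30 and −2.64 in -/- cells against −2.09 and −1.92 in +/+ cells. The sum therefore says little about the other markers of the list. Of 7 pituitary markers Pou1f1, Tshb, Fshb and Cga were not well above background on any array, and the summed level was 0.22 and 0.20 in -/- cells against 0.30 and 0.29 in +/+ cells.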

How the data were processed

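Total RNA of 4 pooled cultures was labelled (200 ng each) and hybridised to 1-colour Agilent arrays, 1 array per group, on 1 slide. The deposited scanner signals are intensity values from the authors' run of Agilent Feature Extraction 11.5.1.1, background-subtracted and not scaled between arrays, per the file headers. The deposited value table holds a ratio, which equals each signal divided by about its array's 75th percentile (2638 to 3301 intensity units); its column medians were 0.07 on each array, and the authors' exact formula is not given in the sources used here.

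Outlier spots named by the scanner software (105 to 116 per array) were dropped. The level of a spot is its log2 signal minus the 75th percentile, which was taken on each array over the 43020 spots that are no controls. That percentile was 3300 and 2889 in -/- cells (with calcium, then without) and 2737 and 2638 in +/+ cells. Probes spotted 10 times had a median SD of 0.06 (log2). Of 39429 probes 27502 were named through their accession in a RefSeq table (GRCm38.p6), and 11927 kept the file's name. They stand for 30340 genes, each read from its brightest probe. A gene entered a comparison when at least 1 of its arrays had it well above background. Where the dim side was below background, its value was set to the higher of its own and the dimmest probe well above background, which gives a lower bound. Genes were called at 2-fold. Response differences used genes above background on all 4 arrays.

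With 1 array per group no test was possible, and precision is limited by the number of arrays. Python 3.11.15, R 4.3.3 and limma 3.58.1 (normexp, quantile) were used. The calling was run on simulated data with all genes above background and noise of 0.06 (log2), about the SD of repeated spots. That could not test dim probes, lower bounds or differences between cultures. Promoters are RefSeq windows of GRCm38.p6. Probe positions are mm9 as in the files. The genes described and the gene lists were chosen with earlier results of these data known, and 1 gene of the receptor and signalling list is not reported here. The genes named are the 5 genes picked, the family and receptor lists, the 3 genes nearest to each measured gene, up to 3 genes of a marker list with the highest mean level and Pla2g2f; markers not above background are named as such. Alternatives covered scaling, background correction, the deposited table, the probe choice, the filter and the threshold.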

Additional observations from a re-analysis of the deposited data

Results flagged for a closer look

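Among the probes of Prl8a9, Prl8a6 and Prl6a1 and the shared proliferin probe, 3 had calcium responses of opposite sign in the 2 genotypes, each from single arrays, and the difference between genotypes was not tested. Prl8a6 differed with minus without calcium by 0.24 in -/- cells and by −1.30 in +/+ cells. The second Prl6a1 probe, at the 5′ end of the gene, differed by 0.33 in -/- cells and by −0.69 in +/+ cells. The Prl2c5 probe that also lists Prl2c2 and Prl2c3 differed by −0.15 in -/- cells and by 0.44 in +/+ cells, the opposite way round. The brighter Prl6a1 probe had the same sign in both genotypes, with −0.58 in -/- cells and −2.17 in +/+ cells. The values in -/- cells of Prl8a6 and Prl2c5 were smaller than their scanner errors (0.41 and 0.20). Opposite signs, also untested, were seen in other family genes. Prl2b1 differed by 0.43 ± 0.40 in -/- cells and by −0.48 ± 0.35 in +/+ cells. Prl3b1 differed by 0.16 ± 0.21 and −0.09 ± 0.21, both within the scanner error. Prl8a1 was at least 1.43-fold higher with calcium in -/- cells and at least 2.09-fold lower with calcium in +/+ cells.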

How the results depend on the processing

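No paired analysis was possible because each group had 1 array and the labels give no replicate numbers. Prl8a9, Prl8a6 and Prl6a1 gave 135 recomputed values (5 differences each under 9 alternatives). Of these 112 lay within the scanner error of the main value, 23 moved further, and no value past 2-fold changed sign. Many of the values could not move, so these counts do not measure robustness. The filter settings leave these 3 genes unchanged because all were well above background on every array, and the threshold changes no value. The deposited table is scaled by almost the same percentile, and the mean of probes can change only Prl6a1. With normexp background correction Prl8a6 had −0.91 and −1.93 between genotypes with and without calcium, −0.98 with calcium in +/+ cells and 1.02 as response difference. Prl6a1 then had −0.84, −2.34 and −1.88 for the first 3. With the mean of both Prl6a1 probes the 4 differences were −0.87 and −2.17 between genotypes with and without calcium, and −0.12 and −1.43 for calcium in -/- and +/+ cells.

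Scaling to 9 basal keratinocyte genes, added after seeing the data, put the median of all genes between 0.08 and 0.61 over the 5 comparisons, against −0.18 to 0.02 in the main scaling. Prl8a9 then had −1.38 and −2.58 between genotypes with and without calcium, 0.36 and −0.84 for calcium in -/- and +/+ cells, and a response difference of 1.20. Prl8a6 had −1.16 with calcium between genotypes, and 0.89 and −0.96 for calcium in -/- and +/+ cells. Prl6a1 had −0.65 and −2.55 between genotypes, and 0.07 and −1.83 for calcium. Under quantile scaling Prl8a6 had −0.01 for calcium in -/- cells.

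Numbers of genes past 2-fold depended more on the setting. For the genotype difference with calcium 2071 genes became 1321 with normexp, 3522 without the filter on dim probes, 893 at 3-fold and 3543 under the basal scaling. Without calcium 1914 became 842, 4314 and 619 under the first 3. For calcium in -/- cells 769 became 344, 2366 and 275 under the same 3, with 494 for genes above background on both arrays and 3128 under the basal scaling. For calcium in +/+ cells 736 became 390, 1983 and 285. For the response difference 488 became 180, 3844 and 87, and 1000 under the basal scaling. The share of calls that were higher was 51.8% for the genotype difference without calcium and 74.4% after quantile scaling, 83.2% and 73.1% for calcium in -/- cells, and 75.2% and 50.4% for the response difference. Under the basal scaling it was 94.8% and 79.2% for the genotype difference with and without calcium (68.2% and 51.8% in the main scaling), 99.4% and 91.8% for calcium in -/- and +/+ cells (83.2% and 70.9%), and 94.2% for the response difference. Without the filter on dim probes it was 30.9% for the genotype difference without calcium and 44.7% for calcium in +/+ cells.

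With 1 array per group there is no spread between cultures or mice. Signals near the limit of detection (31.1 to 40.4 intensity units) bound what Prl8a6 and the dim family genes can show.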
